A study of Mus musculus with 2 samples.

Results

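The subunits of voltage-gated potassium, sodium, calcium and HCN channels were followed in sorted cells of the embryonic mouse cortex. Members were all listed genes whose symbol follows the naming pattern of these families, 107 of 15643 genes: 72 potassium, 8 sodium, 23 calcium and 4 HCN genes. The pattern also takes 12 inward rectifier, 9 two-pore and 7 ion-activated potassium channel genes, most of which are not gated by voltage alone, and calcium channel gamma genes whose products mainly serve AMPA receptors. Scn2a is listed under its older name Scn2a1 and falls outside the pattern. It had 753 reads in the knockdown library and 1043 in the control library, a log2 ratio of -0.28.

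Both groups were CD-1 embryos whose cortex was electroporated in utero at embryonic day 13, with an Rbm3 knockdown plasmid in one group and a control plasmid in the other. Rbm3 encodes a cold-induced RNA-binding protein. Maternal cooling followed at embryonic day 14 in both groups. Cells carrying the plasmid's GFP, which the labels call neural stem cells, were collected by flow sorting at embryonic day 15. Each group had 1 library made from 100 ng of RNA, and the number of embryos behind a library was not stated. There was no group without cooling.

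Voltage-gated channels open when the membrane potential changes. Pore-forming subunits make the channel, and accessory subunits set its trafficking, voltage range and kinetics. Sodium channels carry the upstroke of the action potential, potassium channels repolarise the membrane and set its resting state, and calcium channels couple voltage to calcium entry. In the developing cortex these genes are mainly used by neurons as they become excitable, while progenitors are coupled and largely non-spiking cells.

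The listed genes summed to 16823612 reads in the knockdown library and 17757555 reads in the control library. Rbm3, the targeted gene, had 2397 and 3242 reads in these libraries, a ratio of 0.841 (95% counting interval 0.798 to 0.887). The radial glia marker list summed to 1200 CPM (read counts scaled to a common depth) in the knockdown library and 2131 CPM in the control library, with 3 of 9 markers at least 2-fold lower. The neuron list summed to 9244 CPM in the knockdown library and 8563 CPM in the control library, so neuronal transcripts were abundant in both libraries of cells labelled as stem cells. Meningeal fibroblast markers summed to 90.4 CPM in the knockdown library and 1022 CPM in the control library, and endothelial markers to 157.5 and 391.6 CPM in these libraries. The Y-linked genes Eif2s3y, Ddx3y, Kdm5d and Uty had 0 reads in the knockdown library and 323 to 1104 reads in the control library. The part of these differences in the results below was not tested.

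Most channel subunits lay within 2-fold between libraries. Of the 107 members, 77 were measured, meaning a mean of at least 5 CPM. Among these, 4 were at least 2-fold higher in the knockdown library, namely Kcnq3, Kcna1, Kcna3 and Cacna1f. That is 5.19% of measured members, against 2.13% of all measured genes. Another 3 were at least 2-fold lower, namely Kcne2, Kcnip1 and Kcnip2, or 3.9% of members against 4.51% of all measured genes. With library totals in place of TMM scaling the split was 3 higher and 4 lower. The median log2 ratio, knockdown over control, was -0.05 over measured members and 0.03 over all measured genes. With 1 library per group there is no replicate error and no test, and all intervals below cover counting error only. In bulk RNA, fewer cells of a type and less RNA per cell cannot be told apart.

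The counting interval excluded equality for 22 higher members, 28.6% of those measured against 39.5% of all measured genes. It did so for 28 lower members, 36.4% against 32.9%. Pore-forming and modifier subunits were evenly divided under TMM scaling, with 27 above and 27 below a log2 ratio of 0 and a median of 0.01. Accessory subunits lay mostly below it, 18 of 23 or 78.3% against 46.9% of all measured genes, with a median of -0.17. Of all members, 14 have over 5% of their exon bases under another gene, each on the opposite strand, and the use of strand in counting was not stated. Of those named below they include Kcna6, Kcnj3 (31.1%), Kcnmb4 (20.8%), Hcn3 (17.1%), Kcnk2 (12.2%) and Kcnj13. In the main setting, all 4 measured members past 2-fold upward were pore subunits and all 3 past 2-fold downward were accessory subunits. This split depends on the setting: with the length correction, 3 were higher and 5 lower. Under 5 CPM, the pore or modifier members Kcnc4, Kcns1 and Kcnj13 had whole intervals past 2-fold downward, as did the accessory members Kcnip4 and Kcne4. Of measured accessory members, 11 had an interval wholly below equality and 4 wholly above. Median length was 5.68 kb for measured pore and modifier members and 3.84 kb for accessory ones. The part of length was not tested.

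**Figure D1:**
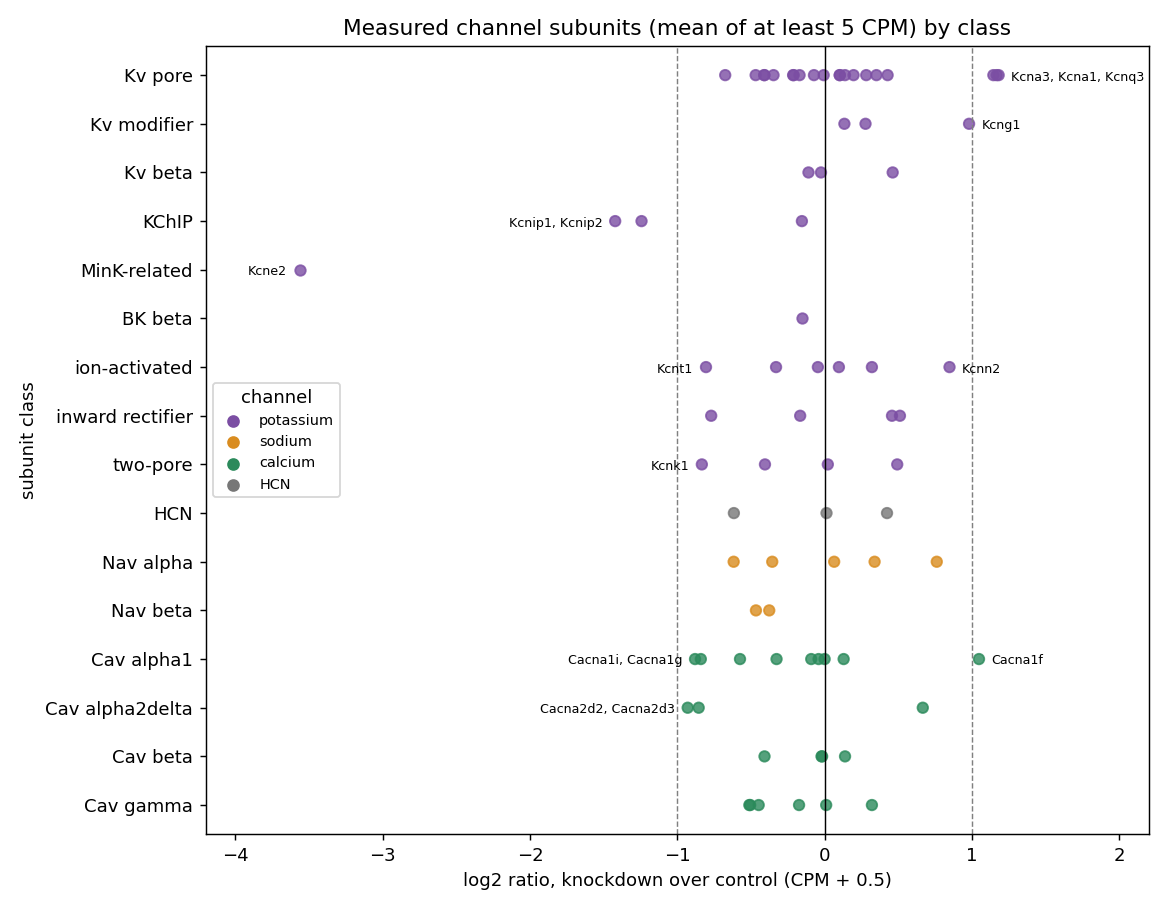
Log2 ratio of knockdown over control, on CPM + 0.5, for each of the 77 measured members, by subunit class. Each point is 1 gene and dashed lines mark 2-fold. Kcnq3, Kcna1, Kcna3 and Cacna1f lie right of the upper line, and Kcne2, Kcnip1 and Kcnip2 left of the lower one.

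Promoter sequences from RefSeq (GRCm38.p6) are shown for a selection of the members described below, each as the 250 bases before 1 transcript start that RefSeq lists. The KChIP genes stand together because 3 of them were lower. Kcna3 was taken as a member on the higher side and Kcnj13 as one with few reads. Kcnip1 and Kcnip4 have further windows that are not printed. The printed Kcnip4 window lies inside the GENCODE gene, before an internal transcript start. Capitals mark the match to the AP-1 motif TGANTCA in Kcnip4 and to TATAAA in Kcnj13.
Kcna3, chr3:107035912-107036161, plus strand: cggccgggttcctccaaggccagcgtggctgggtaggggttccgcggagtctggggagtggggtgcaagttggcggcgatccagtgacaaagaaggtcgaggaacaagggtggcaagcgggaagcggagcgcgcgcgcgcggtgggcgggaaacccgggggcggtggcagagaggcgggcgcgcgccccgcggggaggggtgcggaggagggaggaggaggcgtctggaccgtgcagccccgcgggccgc
Kcnip1, chr11:33993194-33993443, minus strand: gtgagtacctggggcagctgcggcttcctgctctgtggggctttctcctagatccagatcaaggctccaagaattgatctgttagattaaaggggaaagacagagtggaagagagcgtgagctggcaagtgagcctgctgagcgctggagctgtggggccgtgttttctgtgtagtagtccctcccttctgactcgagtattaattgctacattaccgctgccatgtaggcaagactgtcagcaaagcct
Kcnip2, chr19:45816064-45816313, minus strand: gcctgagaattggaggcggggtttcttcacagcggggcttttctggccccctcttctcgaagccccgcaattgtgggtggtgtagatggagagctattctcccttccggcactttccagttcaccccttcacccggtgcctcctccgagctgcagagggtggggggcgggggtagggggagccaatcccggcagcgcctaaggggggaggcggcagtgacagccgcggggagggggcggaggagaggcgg
Kcnip4, chr5:49285660-49285909, minus strand: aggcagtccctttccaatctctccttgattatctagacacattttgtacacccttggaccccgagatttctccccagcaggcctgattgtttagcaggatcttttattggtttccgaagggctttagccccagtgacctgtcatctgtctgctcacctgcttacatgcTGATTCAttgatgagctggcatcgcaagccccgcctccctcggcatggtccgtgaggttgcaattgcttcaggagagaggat
Kcnj13, chr1:87394730-87394979, minus strand: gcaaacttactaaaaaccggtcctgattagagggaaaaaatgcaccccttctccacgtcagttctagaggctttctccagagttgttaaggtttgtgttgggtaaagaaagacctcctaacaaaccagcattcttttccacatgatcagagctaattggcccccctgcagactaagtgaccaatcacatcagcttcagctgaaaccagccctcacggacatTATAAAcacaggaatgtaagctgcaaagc
The Kcna3 window held 31 CpG and was 74.4% GC, while that of Kcnj13 held 3 CpG. Entries were found for 74 member genes with 104 windows. Their median was 9 CpG and 60.2% GC, against 6 CpG and 52.4% GC over 32851 windows of all genes. On both strands, the AP-1 motif was in 4 member windows (Cacng5, Kcnip3, Kcnip4, Kcnk2), or 3.85% of the 104, and in 6.75% of all windows. TATAAA was in 3 member windows (Cacna1d, Kcnj13, Kcnj9), or 2.88%, and in 12.4% of all windows. The cAMP response element TGACGTCA and the EGR motif GCGTGGGCG were in 0 member windows, and in 1.55% and 0.536% of all windows.

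Among pore subunits of the Kv potassium channels, Kcnq3 stood above 2-fold. Kcnq3, a Kv7 pore of the M-current that damps repetitive firing (chr15:65986387-66286642, minus strand, GRCm38), had 2763 reads in the knockdown library and 1382 in the control library, or 11.5 and 5.44 RPKM (reads per kilobase at a common depth, the authors' values). It was 2.28-fold higher in the knockdown library (2.13 to 2.43). Its whole interval lay past 2-fold under TMM scaling. Its log2 ratio of 1.18 fell to 1.07 with library totals and to 1.01 with the length correction, both below that interval. Kcnq5, another Kv7 pore, had 193 reads in the knockdown library and 161 in the control library, a log2 ratio of 0.43.

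In the Kv1 family, whose channels open near threshold in axons, Kcna1 and Kcna3 stood above 2-fold. Kcna1 (chr6:126640397-126646384, minus strand) had 233 reads in the knockdown library and 113 in the control library, 2.35-fold higher (1.87 to 2.96). Kcna3 (chr3:107036169-107038070, plus strand) had 241 reads in the knockdown library and 119 in the control library, 2.30-fold higher (1.84 to 2.90). The lower bounds of both intervals fall under 2-fold. Kcna6 had 339 and 449 reads in the knockdown and control libraries, a log2 ratio of -0.21, and 39.6% of its exon bases overlap a gene on the opposite strand. Kcna2, Kcna4 and Kcna5 had between 13 and 76 reads in either library. Kv1 genes lie in clusters. Kcna5 and Kcna1, 105 kb apart on chromosome 6, had log2 ratios of -0.88 and 1.17. Kcna3 and Kcna2, 63.1 kb apart on chromosome 3, had log2 ratios of 1.14 and 0.62, and their counting intervals overlapped.

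The other Kv pores lay closer to equality, and the 17 measured Kv pores within 2-fold spanned log2 ratios of -0.67 to 0.43. Kcnc1, a Kv3 channel of fast-spiking cells, had 1348 reads in the knockdown library and 1338 in the control library, a log2 ratio of 0.20. The Kv4 pores, which carry the A-type current, had log2 ratios of -0.35 for Kcnd1, -0.17 for Kcnd2 and 0.28 for Kcnd3. Kcnh2, the ERG channel, had 656 reads in the knockdown library and 695 in the control library, a log2 ratio of 0.10.

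Modifier subunits are silent alone and alter Kv2 pores. Kcng1 had 890 reads in the knockdown library and 509 in the control library, or 11.7 and 6.35 RPKM. It was 1.99-fold higher (1.78 to 2.22), just inside the 2-fold limit at a log2 ratio of 0.98. Kcnf1 and Kcnv1 had log2 ratios of 0.28 and 0.13.

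KChIP proteins bind Kv4 pores, bring them to the surface and slow their inactivation. Kcnip1 (chr11:33629339-33993152, minus strand) had 176 reads in the knockdown library and 552 in the control library, or 1.69 and 5.01 RPKM. It was 2.76-fold lower in the knockdown library (2.32 to 3.28). Kcnip2 (chr19:45791839-45816061, minus strand) had 90 reads in the knockdown library and 255 in the control library, 2.49-fold lower (1.95 to 3.20). Kcnip4, under 5 CPM on average, had 31 reads in the knockdown library and 132 in the control library, 3.74-fold lower (2.52 to 5.73). Kcnip3 stood apart from the other KChIP genes, with 431 reads in the knockdown library and 547 in the control library and a log2 ratio of -0.15. It made up 65.9% of the summed KChIP RPKM in the knockdown library and 43.7% in the control library. Per length, Kcnip1 was at 0.283 of the level of Kcnd2 in the knockdown library and 0.693 in the control library.

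**Figure D2:**
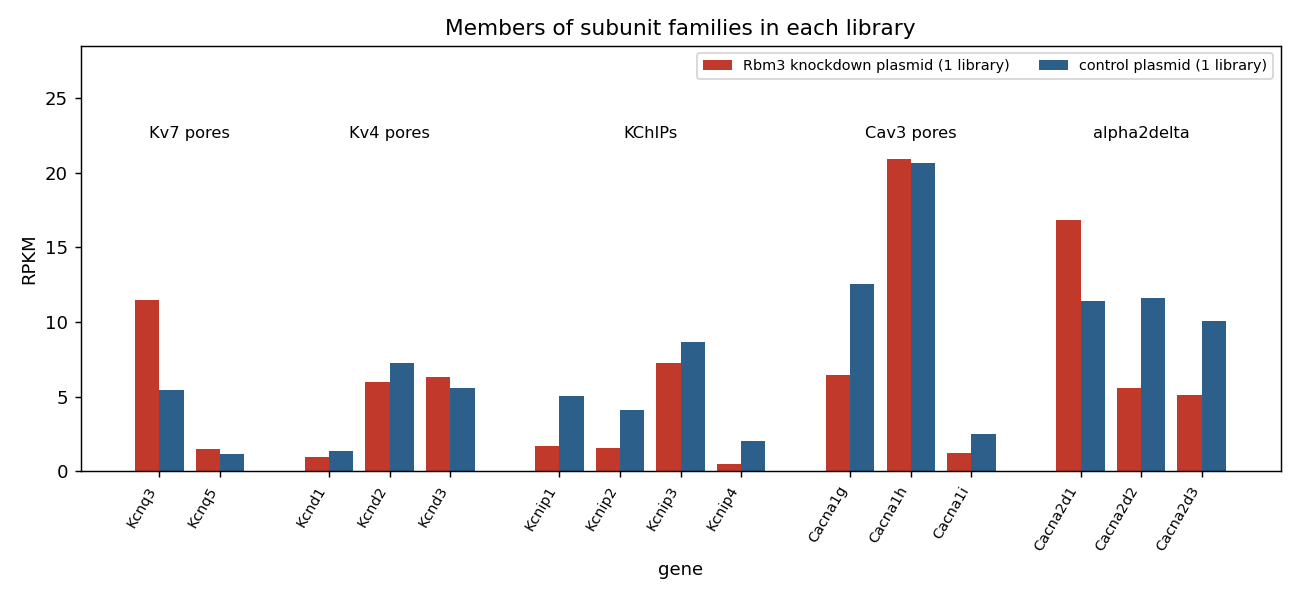
Level in RPKM, the authors' values, of selected Kv7 and of the Kv4, KChIP, Cav3 and alpha2delta genes, with the knockdown library left of the control library for each gene. Each bar is 1 library with no error bar. Kcnq3 and Cacna2d1 are taller in the knockdown library, and Kcnip1, Kcnip2, Cacna1g, Cacna2d2 and Cacna2d3 are shorter.

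Kcne2, a single-span subunit that is also a choroid plexus gene, showed the lowest ratio of all measured members. Its mean of 5.48 CPM was just over the minimum of 5 CPM. It counted as measured through the control library, at 10.5 CPM against 0.432 CPM in the knockdown library. Kcne2 (chr16:92292389-92298129, plus strand) had 7 reads in the knockdown library and 194 in the control library, 24.4-fold lower (11.6 to 61.4). Choroid plexus markers moved with it. Their list summed to 36.2 CPM in the knockdown library and 684 CPM in the control library, with 4 of 5 measured markers at least 2-fold lower and none of the 8 listed at 0. Ttr had 7 reads in the knockdown library and 10451 in the control library. The part of choroid plexus cells in the Kcne2 ratio was not tested. The Kv beta genes Kcnab1, Kcnab2 and Kcnab3, which encode cytoplasmic subunits of Kv1 channels, had log2 ratios of -0.02, -0.11 and 0.46. The BK subunit gene Kcnmb4 was at -0.16.

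None of the potassium channels of other gating types that were measured reached 2-fold. Kcnn2, an SK channel opened by calcium, came nearest above, with 702 reads in the knockdown library and 440 in the control library, 1.82-fold higher (1.61 to 2.05). Kcnt1, opened by sodium, had 257 reads in the knockdown library and 518 in the control library, a log2 ratio of -0.81. Kcnk2, the two-pore leak channel TREK-1, had 974 reads in the knockdown library and 1092 in the control library. Its log2 ratio of 0.02 changes sign with library totals. The inward rectifiers Kcnj11 and Kcnj3 were at 0.46 and 0.51. Kcnj8, a gene of pericytes, was at -0.77. Mural and pericyte markers summed to 171 CPM in the knockdown library and 273 CPM in the control library, but they were split. Of 7 measured, 5 lay below a log2 ratio of 0, with Vtn lowest at -2.22, and 2 above, Abcc9 at 0.14 and Cspg4 at 0.12. The part of mural cells in the Kcnj8 ratio was not tested.

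The HCN channels open on hyperpolarisation and carry a mixed cation current. Hcn3 had 983 reads in the knockdown library and 1109 in the control library, with a log2 ratio of 0.01 whose sign depends on scaling. Hcn4 had 553 and 467 reads in the knockdown and control libraries, and Hcn2 had 117 and 209.

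The sodium channel genes had no member past 2-fold among the 7 measured, and a median log2 ratio of -0.36. Scn3a, the main pore gene of the fetal brain, had 1873 reads in the knockdown library and 2038 in the control library, or 8.93 and 9.20 RPKM. Its log2 ratio was 0.06 and changes sign with library totals. Scn8a, the later-dominant Nav1.6, was at 0.34 with 1658 reads in the knockdown library and 1490 in the control library. Scn1a, the Nav1.1 pore, was at a log2 ratio of 0.76, with 555 reads in the knockdown library and 369 in the control library. Scn9a, its neighbour 39.2 kb away on chromosome 2, had a log2 ratio of -0.62. The beta subunit genes lay on the lower side. Scn3b had 1965 reads in the knockdown library and 2905 in the control library, 1.30-fold lower (1.23 to 1.38), and Scn2b was at a log2 ratio of -0.47. The summed reads of the 5 alpha genes in the pattern, which leave out Scn2a, gave a ratio of 1.15 (1.11 to 1.21). The summed reads of all listed genes gave 1.08 on the same scaling.

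Among calcium channel pores, Cacna1h of the low-voltage Cav3 family had the most reads in both libraries. Cacna1h had 3445 reads in the knockdown library and 3585 in the control library, or 20.95 and 20.65 RPKM. Cacna1g had 1106 reads in the knockdown library and 2261 in the control library, 1.80-fold lower (1.67 to 1.93), and Cacna1i was at a log2 ratio of -0.88. The family was thus uneven, and the RPKM of Cacna1g was 0.309 of that of Cacna1h in the knockdown library and 0.607 in the control library. Cacna1f (chrX:7607083-7635196, plus strand), known from the retina, had 301 reads in the knockdown library and 161 in the control library, 2.13-fold higher (1.75 to 2.59). It is X-linked, and Xist had 24642 reads in the knockdown library and 5246 in the control library; the part of sex in its ratio was not tested. Cacna1f fell under 2-fold with library totals, upper-quartile scaling or the length correction, the lowest log2 ratio being 0.89. The other pores, Cacna1a to Cacna1e, lay between -0.57 and 0.00.

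The alpha2delta subunits, which help carry calcium channels to the membrane, lay on both sides of equality. Cacna2d1 had 2132 reads in the knockdown library and 1526 in the control library, 1.59-fold higher (1.49 to 1.70). Cacna2d2 had 571 reads in the knockdown library and 1246 in the control library, 1.92-fold lower (1.74 to 2.12), and Cacna2d3 was at a log2 ratio of -0.85. Cacna2d1 made up 61.1% of the summed alpha2delta RPKM in the knockdown library and 34.5% in the control library.

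Cacnb3, a cytoplasmic beta subunit, had the highest RPKM of all members in both libraries, 83.6 in the knockdown library and 91.5 in the control library. Its log2 ratio was -0.02. Cacng7 followed with 74.1 RPKM in the knockdown library and 79.3 RPKM in the control library. Cacng4, a TARP that guides AMPA receptors, had 47.0 RPKM in the knockdown library and 69.1 RPKM in the control library, a log2 ratio of -0.45. The signs of Cacnb3 and Cacng7 depend on scaling. Across all 107 members, log2(RPKM + 0.1) in both libraries gave a Pearson correlation of 0.909, as a description over genes, which are not replicates.

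**Figure D3:**
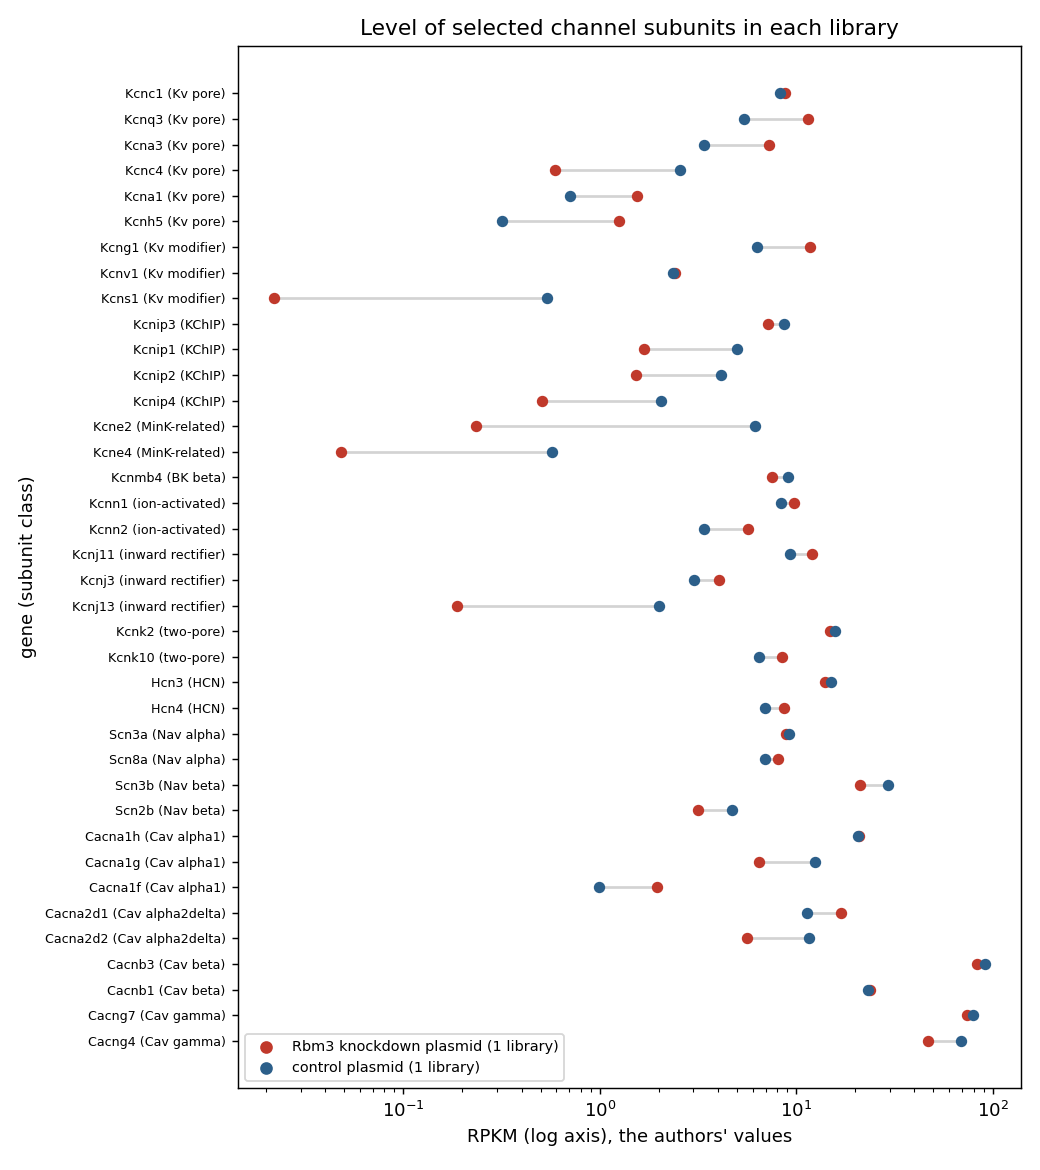
Level in RPKM (log axis, the authors' values) of selected members in each library, grouped by subunit class, with lines joining both libraries of a gene. Cacnb3, Cacng7 and Cacng4 are the highest in both libraries, and Kcne2, Kcns1, Kcne4 and Kcnj13 have the widest gaps.

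Of the 30 members under 5 CPM, Kcnh5 had its whole interval past 2-fold upward, 3.33% against 3.2% of all genes under 5 CPM. Another 5 had it past 2-fold downward, 16.7% against 13.3%. Kcnh5, an EAG-type Kv pore, had 86 reads in the knockdown library and 23 in the control library, 4.26-fold higher (2.66 to 7.07). Kcnc4, a Kv3 pore, had 30 reads in the knockdown library and 137 in the control library, 4.01-fold lower (2.69 to 6.17). Kcnj13 had 4 reads in the knockdown library and 45 in the control library, 9.89-fold lower (3.60 to 37.8). It is known from choroid plexus, whose markers are given above, and 49.1% of its exon bases overlap Gigyf2 on the opposite strand. Kcne4 had 2 reads in the knockdown library and 25 in the control library, a ratio of 0.0910 (0.0105 to 0.365). Kcns1, a Kv2 modifier, had 1 read in the knockdown library and 26 in the control library, a ratio of 0.0438 (0.00107 to 0.266). Kcnip4, given above, is the fifth. The other 24 members had 4 to 76 reads in the knockdown library and 20 to 120 in the control library, and for 13 of them the interval included equality.

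**Figure D4:**
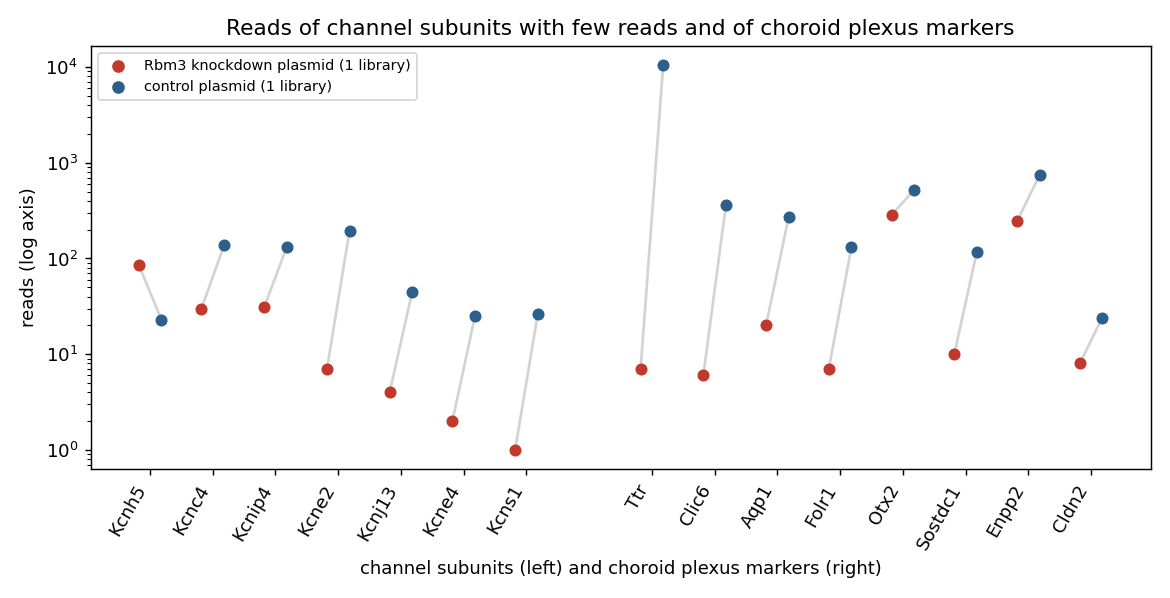
Reads (log axis) in the knockdown library and, to its right, the control library for members with few reads and for choroid plexus markers. Kcnh5 is the only one of these genes with more reads in the knockdown library.

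In the authors' deposited table, 1 member was past p below 0.05 and 2-fold upward (Kcnh5, 0.935% against 1.82% of all genes). Downward, the authors' deposited table had 10, or 9.35% against 6.05%, among them Kcne2, Kcne4, Kcns1, Kcnj13, Kcnc4, Kcnip1 and Kcnip4. At an FDR below 0.05, in either direction, the authors' deposited table held 3 members, Kcne2, Kcns1 and Kcnj13, or 2.8% against 1.88% of all genes. Those p-values rest on an assumed spread between replicates, with 1 library per group.

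Genes that work with these channels were read from a list of 32, of which 25 were measured, with 0 at least 2-fold higher, 2 lower and a median log2 ratio of -0.29. Of all measured genes, 2.13% were at least 2-fold higher and 4.51% lower, with a median of 0.03. Dpp10, which like the KChIPs is an accessory protein of Kv4 channels, had 128 reads in the knockdown library and 384 in the control library, 2.64-fold lower (2.15 to 3.25). Fgf12, which binds sodium channel pores, had 124 reads in the knockdown library and 336 in the control library, 2.38-fold lower (1.93 to 2.95). Dpp6, the other Kv4 partner of this type, was at a log2 ratio of -0.77. Ank3, the anchor of sodium channels at the axon initial segment, was at -0.10. Other listed genes were higher in the knockdown library, among them Fgf11 at 1.71-fold (1.54 to 1.90) and Nfasc at 1.59-fold (1.54 to 1.65). Of the 25 measured, 7 had an interval wholly above equality and 15 wholly below. Of all measured genes, 39.5% had it above and 32.9% below.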

How the data were processed

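Messenger RNA of 2 libraries, 1 per group, was measured by RNA sequencing. The deposited table holds raw read counts and RPKM values per gene and library, per the file headers. It also holds the authors' log2 fold changes, p-values and FDR, per the file headers. The submitters' processing notes name TopHat2 2.0.12, Bowtie 1.0.1 and HTSeq 0.6.0. The sources used here do not state the genome build, the annotation or whether counting was stranded. Only genes above a low read minimum are listed, so column totals are totals over listed genes.

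TMM factors (edgeR 4.0.16) scaled the counts to a common depth, written CPM. Log2 ratios were taken on CPM + 0.5. A gene with a mean of at least 5 CPM was called measured, and a 2-fold difference was the call. Intervals of ratios are exact 95% Clopper-Pearson intervals of the raw counts, without the added 0.5, and cover counting error only. PCR reads without molecular identifiers are not independent molecules. No test between groups is possible with 1 library per group. The deposited p-values equal edgeR's exact test with a dispersion of 0.1, within 1e-06 for all 15643 genes, so spread between replicates was assumed there.

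Members were taken by name pattern. Values of some single genes are not reported here, though counts and medians include them. Genes were named in the text where they passed the 2-fold call, where their whole interval lay past 2-fold under 5 CPM, or where they ranked high in level within their class. Further members are given as family values and were not chosen by that rule. The members, gene lists and naming rule were chosen with earlier results of these data known. Coordinates come from GENCODE M21 (GRCm38), matched by gene ID, and sequences from RefSeq. The method was tested on simulated data. Other scalings (DESeq2 1.42.0 median-of-ratios, library totals, upper quartile), pseudocounts, minimums, folds and a length correction were tried.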

Additional observations from a re-analysis of the deposited data

How the results depend on the processing

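With 1 library per group, no replicate could be left out and depth limits precision only through counting error. No paired analysis was possible because each group has 1 library. The count of measured members at least 2-fold higher was 4; it was 8 at 1.5-fold and 0 at 3-fold. The count at least 2-fold lower was 3; it was 13 at 1.5-fold, 1 at 3-fold, 5 with the length correction, 7 with a minimum of 1 CPM, 1 with a minimum of 10 CPM and 11 with no minimum. The last 3 differ by construction in the genes counted. The sodium median log2 ratio of -0.36 was 0.064 with a minimum of 10 CPM. The median over all members ranged from -0.17 to 0.01. The median of all measured genes shifted by -0.11 with library totals. Of 64 alternatives to these counts and medians, 55 stayed within 1.5 times the count or within limits set for the medians. Those limits have the width of single-gene counting intervals, -0.33 to 0.08 for the median over all members. They are not the counting error of a median, so staying within them is a weak check. Kcnq3, Kcna1, Kcna3, Kcnip1, Kcnip2 and Kcne2 kept their side of 2-fold under each scaling, pseudocount and length setting tried; Cacna1f did not, and Cacna2d2, within 2-fold at first, reached a log2 ratio of -1.04 at its lowest. Where a value moved, the cause was not tested.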

Other observations

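Genes outside the naming pattern that move or release ions were also read from lists. For comparison, 2.13% of all measured genes were at least 2-fold higher and 4.51% lower, with a median log2 ratio of 0.03. Of 20 ion pumps and exchangers, 18 were measured, with 1 at least 2-fold higher, 3 lower and a median log2 ratio of -0.34. Slc12a5, the neuronal chloride exporter KCC2, had 542 reads in the knockdown library and 1464 in the control library, 2.37-fold lower (2.15 to 2.62). Slc24a3, a potassium-dependent sodium/calcium exchanger, had 144 reads in the knockdown library and 450 in the control library, 2.75-fold lower (2.27 to 3.34). Slc8a1, a sodium/calcium exchanger, had 677 reads in the knockdown library and 336 in the control library, 2.29-fold higher (2.01 to 2.62).

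Of 52 other ion channel genes, 47 were measured, with 2 at least 2-fold higher, 1 lower and a median log2 ratio of 0.05. Itpr1, the IP3 receptor of the endoplasmic reticulum, had 1252 reads in the knockdown library and 670 in the control library, 2.13-fold higher (1.93 to 2.34). Lrrc8b, a volume-regulated anion channel subunit, had 509 reads in the knockdown library and 242 in the control library, 2.39-fold higher (2.05 to 2.80). Trpm3 had 110 reads in the knockdown library and 441 in the control library, 3.52-fold lower (2.85 to 4.38), and it is also a choroid plexus gene; the part of those cells was not tested.

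Of measured endothelial markers, 10 of 10 were below a log2 ratio of 0 and 7 were at least 2-fold lower in the knockdown library. For meningeal markers both counts were 9 of 9, and for erythroid markers 5 of 5 were below 0 and 4 at least 2-fold lower. Mural markers were below 0 in 5 of 7 and at least 2-fold lower in 2. Microglial markers were above 0 in 4 of 5 and at least 2-fold higher in 1. Intermediate progenitor markers were above 0 in 7 of 8 and at least 2-fold higher in 3. Of 10 interneuron markers, 5 were above and 5 below 0, with 2 at least 2-fold higher and 3 at least 2-fold lower. Of 16 neuron markers, 8 were above and 8 below 0, with 3 at least 2-fold higher and 2 at least 2-fold lower. Across measured genes the log2 ratio had a Spearman correlation of 0.249 with gene length, given as a description over genes.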
